A study of Rattus norvegicus with 8 samples.

Results

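Lipogenesis, the building of fatty acids from acetyl-CoA, was examined in rat liver through 10 genes: the transcription factor genes Srebf1 and Mlxipl and the target genes Acly, Acss2, Acaca, Acacb, Fasn, Me1, Thrsp and Pnpla3. The members were all probe sets whose platform annotation gives exactly 1 symbol and that symbol is 1 of the 10, which gave 18 probe sets out of 31042, for 10 of 14217 named genes. Of the 10 genes, 4 had 1 probe set, 4 had 2 and 2 had 3. The 8 livers were those of male Sprague-Dawley rats, an outbred strain, aged 7 weeks. A set of 4 came from iron-deficient rats, whose feed lacked the ferric citrate of the control feed, and 4 from control rats on the complete feed, an AIN93G formula with Avicel replacing cellulose. The feeds were given to 7 iron-deficient and 6 control animals, and the labels do not say which of them gave the arrays, which they call biological replicates. Animals of both groups ate only in a daytime window for 4 days from day 12, and on day 17 they had 1.5 h of access to feed before sacrifice. Per the series' design text, hemoglobin of the iron-deficient animals stood at 42% of that of the controls. Whole liver was used, so fewer cells of a type and less RNA per cell cannot be told apart.

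Fatty acid synthesis begins when ATP citrate lyase (Acly) splits citrate, or acetyl-CoA synthetase (Acss2) activates acetate, to give cytosolic acetyl-CoA. Acetyl-CoA carboxylases (Acaca, Acacb) turn it into malonyl-CoA, fatty acid synthase (Fasn) builds palmitate, and malic enzyme (Me1) supplies NADPH. In liver this set of genes is switched on after a carbohydrate meal by SREBP1, the insulin-responsive product of Srebf1, and by ChREBP, the glucose-responsive product of Mlxipl.

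The upstream sequences of the genes that the results turn on are shown first, namely Srebf1 and Acss2, whose diet groups did not overlap for 1 probe set each, and Acly and Thrsp, which varied with Fasn from liver to liver. Each is the 250 bases before a transcription start, read 5′ to 3′ on the gene's strand from RefSeq on the build GRCr8. Capitals mark CCAAT, the box of NF-Y, a partner of SREBP, together with GGGCGG, the GC box bound by Sp1, and CATGTG, an E-box, each on either strand.
Srebf1, downstream of the 2 starts listed, chr10:45519011-45519260, minus strand: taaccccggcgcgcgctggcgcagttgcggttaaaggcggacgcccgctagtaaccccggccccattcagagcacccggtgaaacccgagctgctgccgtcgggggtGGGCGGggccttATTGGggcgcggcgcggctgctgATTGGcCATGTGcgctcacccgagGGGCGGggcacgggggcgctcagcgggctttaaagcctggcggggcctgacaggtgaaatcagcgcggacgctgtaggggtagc
Acss2, chr3:164464453-164464702, plus strand: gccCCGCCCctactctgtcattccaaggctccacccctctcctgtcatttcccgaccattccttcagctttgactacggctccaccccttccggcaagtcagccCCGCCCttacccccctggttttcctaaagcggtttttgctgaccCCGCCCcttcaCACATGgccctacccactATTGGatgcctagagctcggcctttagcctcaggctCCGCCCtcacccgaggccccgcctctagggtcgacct
Acly, chr10:85963632-85963881, minus strand: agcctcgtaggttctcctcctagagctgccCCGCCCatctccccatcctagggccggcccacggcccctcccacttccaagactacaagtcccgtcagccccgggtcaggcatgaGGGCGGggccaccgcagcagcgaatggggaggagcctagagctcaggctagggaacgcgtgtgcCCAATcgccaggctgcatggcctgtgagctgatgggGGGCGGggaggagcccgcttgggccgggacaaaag
Thrsp, chr1:161138965-161139214, minus strand: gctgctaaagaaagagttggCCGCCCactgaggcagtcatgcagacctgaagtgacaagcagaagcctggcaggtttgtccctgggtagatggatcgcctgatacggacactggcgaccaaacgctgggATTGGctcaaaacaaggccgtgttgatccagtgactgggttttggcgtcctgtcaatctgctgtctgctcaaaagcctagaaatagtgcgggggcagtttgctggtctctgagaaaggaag

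The RefSeq table held starts for 8 of the 10 genes, 10 starts in all, and Fasn and Acaca were not among them. CCAAT occurred in 34% of the 250-base windows of 33469 rat starts, GGGCGG in 30.5% and CATGTG in 12.1%. The window shown for Srebf1 held 2 CCAAT boxes, from -131 to -127 and from -108 to -104, counted from -1 at the base before the start. The second was followed by CATGTG from -102 to -97, and 2 GC boxes lay from -143 to -138 and from -84 to -79. The other Srebf1 start, not shown, had 1 CCAAT box, 2 GC boxes and no CATGTG. Acss2 held 4 GC boxes, 1 CCAAT box from -73 to -69 and 1 CATGTG from -91 to -86. Acly held 3 GC boxes and 1 CCAAT box, and Thrsp 1 of each. TCACNCCAC, a core of the sterol regulatory element, was found in 0.974% of all windows, the E-box CACGTG in 5.59% and CANNTGNNNNNCANNTG, a spaced E-box pair of the kind ChREBP binds, which overlaps any single E-box within it, in 0.636%. None of these 3 letter patterns was in the windows of the 8 member genes. Elements that depart from these letters were not searched for, so the windows are not shown to lack a sterol regulatory element. These are matches of letters in the reference strain's sequence, and the deposited probe sets were not assigned to starts.

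Values are log2 signals as the authors deposited them, and on this scale a difference is not read as a fold change. Differences between arrays were very small and appear compressed by an amount that varies between probe sets, a cause that was not tested. Among the members, spread differed between probe sets of the same gene. The 3 probe sets of Pnpla3 correlated at r = 0.917 to 0.996 over the 8 arrays, while their within-group SDs differed by up to 43.8 times. The 2 probe sets of Fasn correlated at 0.990 with SDs that differed by 3.98 times, and the 2 of Srebf1 at 0.966 with SDs that differed by 6.68 times. Sizes are therefore compared only as standardised differences, the difference in units of the within-group SD. Array medians lay between 7.1199 and 7.1207, and the 25th percentile of the probe set means was 6.55. Means of the 18 member probe sets lay between 6.80 and 13.11, all above that percentile, which is not a detection limit. Acacb and all 3 probe sets of Pnpla3 averaged below the array medians. The 3′ minus 5′ difference of the array's Gapdh control, a sign of RNA quality, was 1.16959 to 1.16967 in iron-deficient and 1.16963 to 1.16984 in control livers on the log2 scale, and the same for actin was 1.4064 to 1.4083 in iron-deficient and 1.4072 to 1.4092 in control livers. The groups overlapped for both, but on this compressed scale overlap does not show that RNA quality was alike.

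The diet comparison asked whether transcripts of lipogenesis differ in livers of iron-deficient rats. Srebf1 read lower and Acss2 higher in iron-deficient livers, while Fasn, Acly, Acaca, Acacb, Me1, Thrsp, Pnpla3 and Mlxipl overlapped between the diets. None of the 18 probe sets passed an adjusted p of 0.05 in limma, which 0.0322% of all 31042 probe sets did. In sign alone, 9 were higher and 9 lower, against 49.6% and 50.4% of all probe sets. At an unadjusted p under 0.05 in limma there were 3 of 18, or 16.7%, against 11.4% of all probe sets. The 3 were 1 higher and 2 lower, where 5.20% of all probe sets were higher and 6.20% lower. The 4 iron-deficient values did not overlap the 4 control values for 2 of 18 probe sets, or 11.1%, against 6.48% of all. Of the 2, 1 was higher and 1 lower, where all probe sets gave 3.07% and 3.41%. With 18 probe sets these shares rest on 3 and 2 members, and nothing is read from them about lipogenesis as a group.

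**Figure D1:**
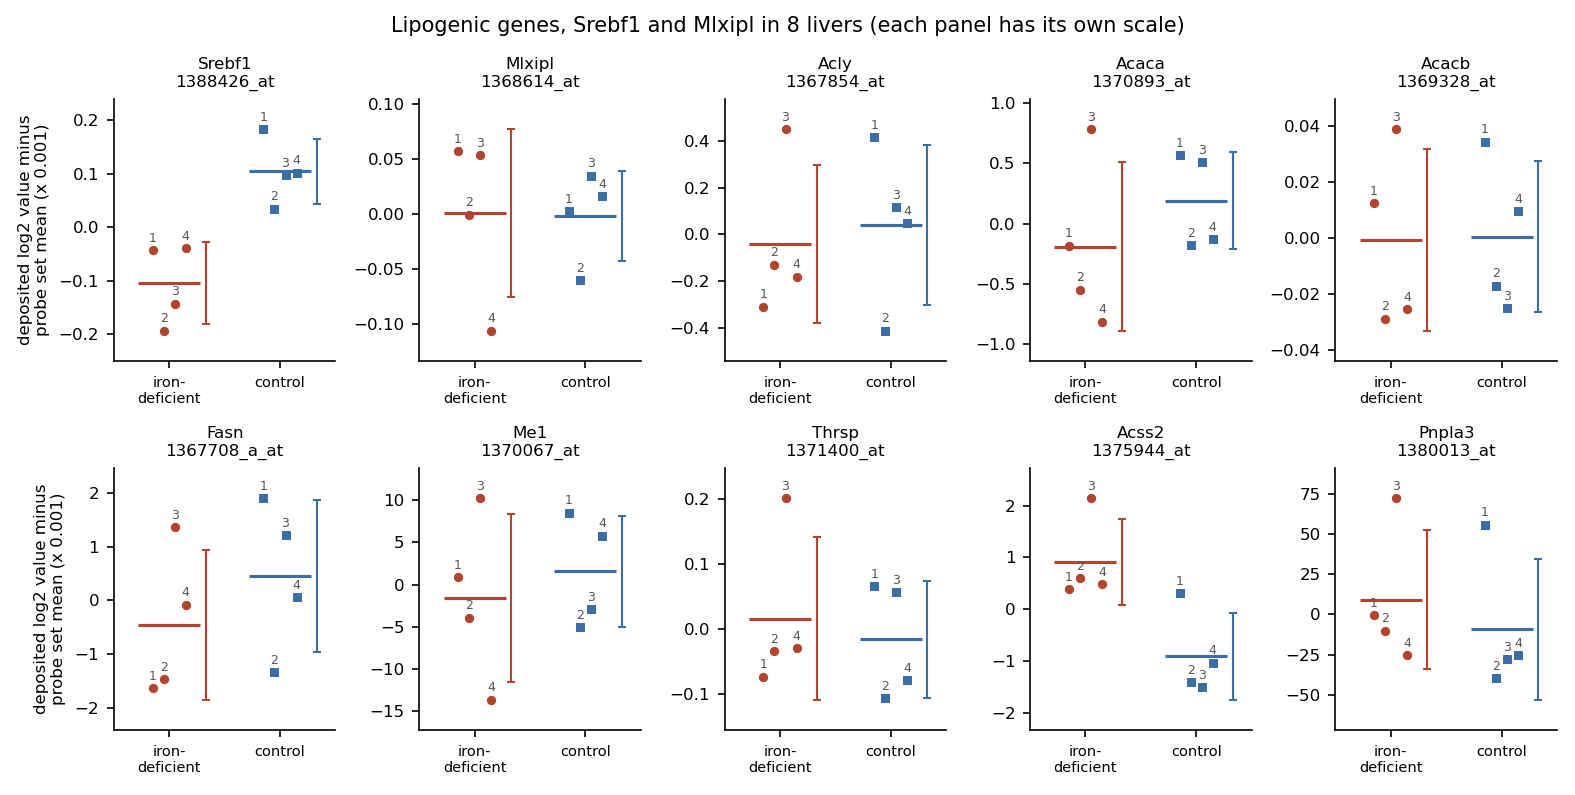
Deposited log2 value of each liver minus the mean of its probe set over 8 arrays, times 1000, for the probe set that stands for each gene. Points are livers numbered by replicate, horizontal lines group means and bars the mean ± SD (n = 4 per diet); iron-deficient livers all lie below control for Srebf1 and all above for Acss2, and overlap control for the other 8 genes.

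Srebf1 encodes the precursor of SREBP1, which is held in the endoplasmic reticulum membrane until it is cleaved and enters the nucleus. Its probe set 1388426_at read 11.96362, 11.96347, 11.96352 and 11.96362 in iron-deficient livers 1 to 4, against 11.96384, 11.96369, 11.96376 and 11.96376 in control livers 1 to 4. All iron-deficient values lay below all control values. The difference was -2.09e-04 ± 4.65e-05 (SE, n = 4 per group), or -3.03 within-group SDs with a 95% interval from -4.65 to -1.41, with an adjusted p of 0.209 in limma. An exact permutation test over the 70 splits of the 8 livers gave a two-sided p of 0.0286, the smallest this design can give, and 18 such tests were run.

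The second Srebf1 probe set, 1371104_at, read 9.84493, 9.84383, 9.84408 and 9.84474 in iron-deficient livers, against 9.84579, 9.84489, 9.84510 and 9.84520 in control livers. Here iron-deficient liver 1 lay just above control liver 2, so the groups touched. Its difference was -1.84 SDs with an interval from -3.46 to -0.221 (limma adjusted p = 0.389, exact permutation p = 0.0571). Both probe sets stayed lower with each array left out in turn, with unadjusted limma p from 0.00358 to 0.0113 for 1388426_at and from 0.0171 to 0.0788 for 1371104_at. With each array centred on its median, 1388426_at stood at -0.504 SDs. Quantile normalization left this probe set with no spread within a group, and 1371104_at stood at -1.52 SDs under it.

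Acss2, whose enzyme makes acetyl-CoA from acetate in the cytosol and nucleus and whose gene is a target of SREBP1 and SREBP2, went the other way. It read 10.46969, 10.46990, 10.47144 and 10.46978 in iron-deficient livers, against 10.46961, 10.46789, 10.46780 and 10.46827 in control livers. The groups did not overlap, although control liver 1 came close to iron-deficient liver 1. The difference was 0.00181 ± 5.63e-04 (SE, n = 4 per group), or 2.17 SDs with an interval from 0.553 to 3.79 (limma adjusted p = 0.324, exact permutation p = 0.0286). It stayed higher with each array left out, from 1.88 to 3.35 SDs, and was largest without control liver 1.

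**Figure D2:**
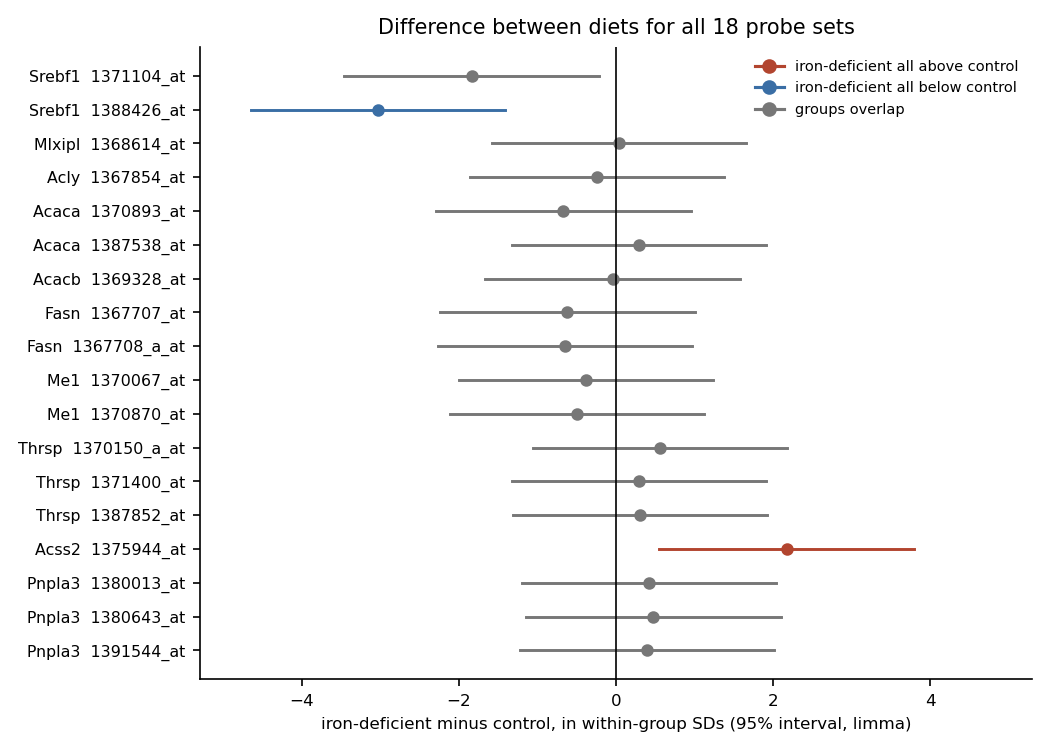
Standardised difference, iron-deficient minus control in within-group SDs, with its 95% limma interval for each of the 18 probe sets (n = 4 per diet). Only the intervals of the 2 Srebf1 probe sets, below 0, and of Acss2, above 0, leave out 0, before any adjustment for the number of probe sets tested.

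Mlxipl, the gene of ChREBP, showed no separation of the diets. It read 8.87938, 8.87932, 8.87938 and 8.87922 in iron-deficient livers, against 8.87932, 8.87926, 8.87936 and 8.87934 in control livers. Iron-deficient livers held both the highest and the lowest value, and the difference of 0.0413 SDs had an interval from -1.58 to 1.66 (limma adjusted p = 0.992).

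Acly, at the entry of the pathway, read 11.99942, 11.99960, 12.00018 and 11.99955 in iron-deficient livers, against 12.00015, 11.99932, 11.99985 and 11.99978 in control livers. Iron-deficient liver 3 and control liver 1 were the 2 highest, and the difference was -0.246 SDs with an interval from -1.87 to 1.37. Acaca, the cytosolic carboxylase that commits acetyl-CoA to fatty acids, was measured by 2 probe sets that differed in sign. Probe set 1370893_at read 10.88517, 10.88480, 10.88613 and 10.88454 in iron-deficient livers, against 10.88592, 10.88517, 10.88586 and 10.88522 in control livers. Iron-deficient liver 3 was again the highest of all 8, and the difference was -0.670 SDs with an interval from -2.29 to 0.950. It stood at -1.91 SDs without iron-deficient liver 3 (limma unadjusted p = 0.0416, adjusted 0.453) and at -0.325 without iron-deficient liver 4. Probe set 1387538_at stood at 0.292 SDs with an interval from -1.33 to 1.91. Acacb, whose malonyl-CoA restrains fatty acid entry into mitochondria, read 7.06382, 7.06378, 7.06385 and 7.06378 in iron-deficient livers, against 7.06384, 7.06379, 7.06378 and 7.06382 in control livers. The groups interleaved, and the difference was -0.0426 SDs with an interval from -1.66 to 1.58.

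Fasn, the synthase itself, was lower on average in iron-deficient livers by both probe sets and in neither beyond the spread between livers. Probe set 1367708_a_at read 11.83624, 11.83640, 11.83924 and 11.83779 in iron-deficient livers, against 11.83977, 11.83653, 11.83908 and 11.83792 in control livers. In each group some livers were high and some low, so the spread within a diet exceeded the gap between the diets. The difference was -0.647 SDs with an interval from -2.27 to 0.973 (limma adjusted p = 0.785), and it stood at 0.841 SDs under quantile normalization. The other probe set, 1367707_at, differed by -0.619 SDs with an interval from -2.24 to 1.00 and kept its sign. With 1 liver left out in turn, both kept their sign and varied by over 1.5 times. Probe set 1367708_a_at ran from -1.24 SDs without iron-deficient liver 3 to -0.318 without control liver 1, and 1367707_at from -1.22 to -0.252 without the same livers. Intervals of this width do not show that the diets gave the same level.

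Me1, the cytosolic malic enzyme, read 8.60450, 8.59966, 8.61384 and 8.58991 in iron-deficient livers, against 8.61211, 8.59857, 8.60067 and 8.60941 in control livers for its brighter probe set. Iron-deficient livers again held both extremes, and the 2 probe sets differed by -0.380 and -0.493 SDs. Without iron-deficient liver 4 both stood higher, at 0.118 and 0.240 SDs.

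Thrsp, the gene of Spot 14, a small protein that promotes lipogenesis and responds to thyroid hormone and carbohydrate, was higher on average by all 3 probe sets, at 0.557 for 1370150_a_at, 0.292 for 1371400_at and 0.306 SDs for 1387852_at. Under quantile normalization 1387852_at stood at 3.30 SDs (limma adjusted p = 0.120), and the other probe sets had no spread. Probe set 1371400_at read 13.11193, 13.11197, 13.11220 and 13.11197 in iron-deficient livers, against 13.11207, 13.11189, 13.11206 and 13.11192 in control livers. Iron-deficient liver 3 stood alone at the top. Without it 1371400_at and 1387852_at stood lower than control, at -0.421 and -0.224 SDs, and 1387852_at was also lower without control liver 2, at -0.0359 SDs.

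Pnpla3 encodes a lipid droplet protein whose transcript is induced by feeding through SREBP1. Its 3 probe sets differed by 0.422, 0.477 and 0.395 SDs, with no interval that left out 0. Probe set 1391544_at, the one with the widest spread, read 6.98804, 6.90450, 7.49486 and 6.79235 in iron-deficient livers, against 7.37778, 6.68462, 6.84641 and 6.78000 in control livers. Iron-deficient liver 3 and control liver 1 stood above the other 6, and without iron-deficient liver 3 all 3 probe sets stood lower, at -0.0764, -0.359 and -0.110 SDs.

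The same 2 livers stood out across the pathway. Among the 10 genes, each by its brightest probe set, iron-deficient liver 3 was the highest of its group for 8, namely Acly, Acaca, Acacb, Fasn, Me1, Thrsp, Acss2 and Pnpla3. Control liver 1 was the highest of its group for the same 8 and for Srebf1. Over all 14217 genes these livers were the highest of their group for 29.5% and 26.0%. Control liver 2 was the lowest of its group for 8 of the 10 genes, against 23.4% of all genes. The median deviation of the 10 genes from their group mean was 1.43 SDs in iron-deficient liver 3, 1.06 in control liver 1 and -0.811 in control liver 2. Srebf1 in iron-deficient liver 3 lay below its group mean.

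**Figure D3:**
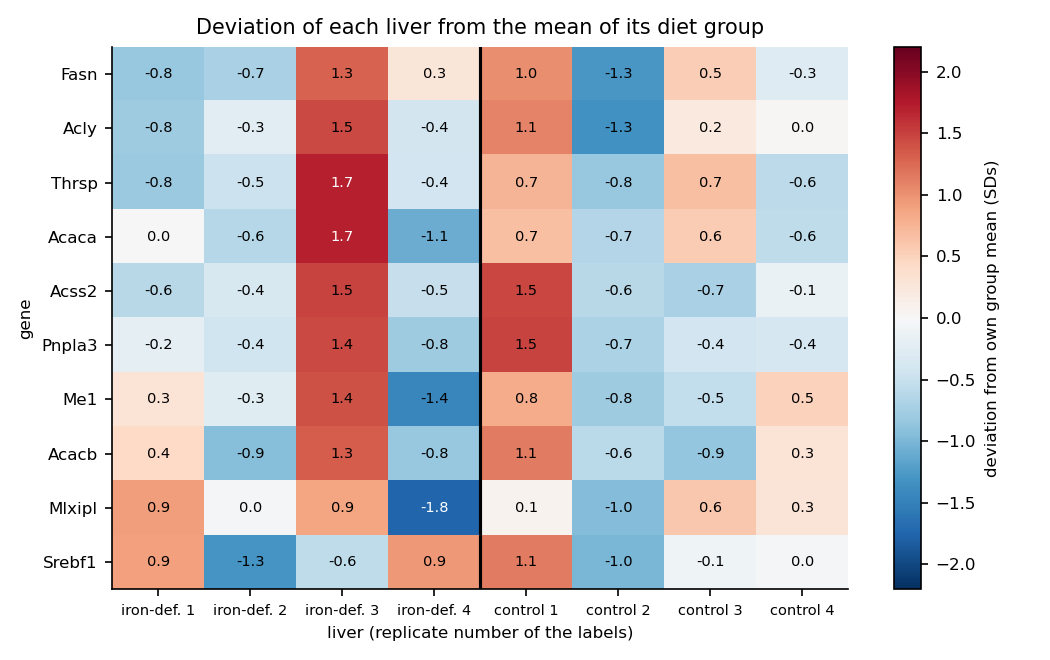
Deviation of each liver from the mean of its own diet group, in within-group SDs, for the brightest probe set of each gene; iron-deficient livers are left of the line and control livers right. Iron-deficient 3 and control 1 are high for the 8 target genes, and Srebf1 does not follow them in iron-deficient 3.

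To see whether the target genes varied with Srebf1 from liver to liver, deviations from the group means were correlated over the 8 livers. For the 9 pairs of Srebf1 with another member, Pearson's r ran from -0.0508 to 0.355 and Spearman's rho from 0.0476 to 0.405. With Fasn, r was 0.355 (exact permutation p = 0.372, adjusted over 9 pairs 0.932) and rho 0.333 (p = 0.428, adjusted 0.935). Without the 2 livers farthest from the Srebf1 median, iron-deficient 2 and control 1, r with Fasn was 0.0106 over 6 livers, and over the 9 pairs it ran from -0.349 to 0.0106. No relation with Srebf1 was detectable with 8 livers. The 2 Srebf1 probe sets tracked each other at r = 0.980 in the same deviations.

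Several members other than Srebf1 varied together, with a lower median r once 2 livers were left out. All 45 pairs of the 10 genes were examined, a step added after the data had been seen. The 36 pairs without Srebf1 all had a positive r, with a median of 0.759 and a range from 0.239 to 0.968. Without the 2 livers farthest from the median of the first gene, the median over these pairs was 0.306 and the range from -0.512 to 0.885. After adjustment over the 45 pairs, 12 passed at 0.05 by exact permutation of Pearson's r and 5 of Spearman's rho. Of the 12, 0 involved Srebf1 and 0 involved Mlxipl. Outside Srebf1, the r of Mlxipl ran from 0.239 with Fasn to 0.771 with Me1 (exact permutation p adjusted 0.674 and 0.0661). The lowest r among the 12 was 0.784, and 15 of the 36 pairs, or 41.7%, reached it. Of the 101054436 pairs of all genes 2.14% did, and 50.4% had a positive r. This cutoff came from the same pairs, and the pairs with Srebf1 were set apart with their values known. The 41.7% and 2.14% are therefore a description and not a test. Without iron-deficient 3 and control 1, r was positive for 25 of the 36 pairs. Deviations within a group sum to 0, so these permutation values are approximate.

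Fasn and Thrsp gave r = 0.911 (exact permutation p = 4.96e-04, adjusted 0.00781) and rho = 0.976 (p = 3.97e-04, adjusted 0.0179), with deviations of the same sign in 7 of 8 livers. Without iron-deficient 3 and control 2, the livers farthest from the Fasn median, r was 0.885 over the other 6. Fasn and Acly gave r = 0.926 (exact permutation p = 9.42e-04, adjusted 0.0106) and rho = 0.929 (p = 0.00223, adjusted 0.0335), and r = 0.827 without the same 2 livers. With iron-deficient 3 and control 1 left out of every pair instead, a choice made after seeing the data, these 2 pairs had r = 0.811 and 0.802. In the same 6 livers Me1 with Pnpla3 stood at 0.898, Acacb with Me1 at 0.786 and Acly with Thrsp at 0.731, while Acaca with Thrsp, Acaca with Pnpla3 and Acacb with Pnpla3 lay between 0.625 and 0.647. Me1 with Acss2 stood at 0.446 there, and Acly with Acss2, Acly with Pnpla3 and Acacb with Acss2 at 0.313, 0.323 and 0.302. Iron-deficient 3 and control 1 were picked as the highest livers for most members, so leaving them out narrows the range and tends to lower r. How far those 4 relations rest on iron-deficient 3 and control 1 therefore cannot be told. Acss2 and Pnpla3, with r = 0.968, did not pass (exact permutation p adjusted 0.0520), and r was 0.127 without these 2 livers.

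**Figure D4:**
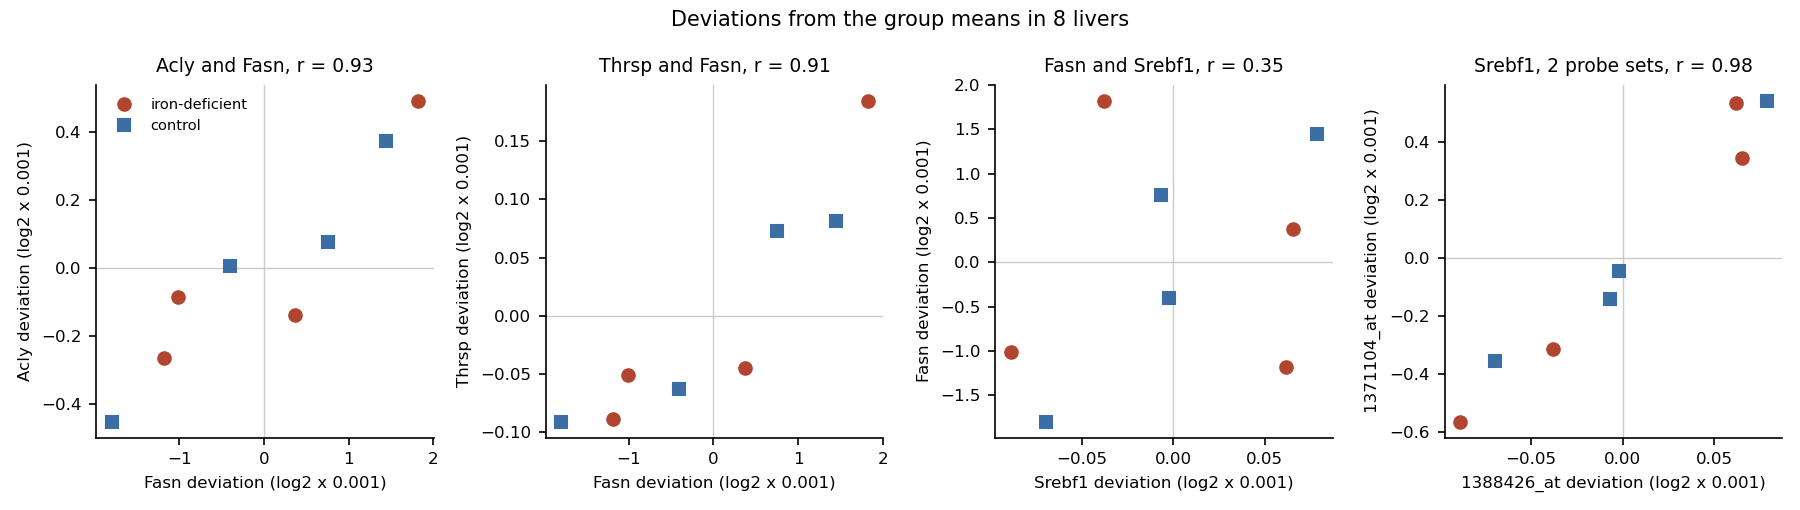
Deviations of each liver from its group mean on the deposited log2 scale, times 1000, for Acly against Fasn, Thrsp against Fasn, Fasn against Srebf1 and the 2 Srebf1 probe sets against each other (8 livers; circles iron-deficient, squares control). Acly and Thrsp line up with Fasn, Fasn is scattered against Srebf1, and the 2 Srebf1 probe sets line up.

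Outside the 10 genes, the likeness of all 14217 genes to Fasn and Srebf1 was ranked over the 8 arrays with the group means kept. The 3 genes most like Fasn were Fis1 (r = 0.921), Slc49a4 (0.921) and Tfg (0.918), while Acly stood at 0.908. The other members were less like Fasn, with Thrsp at 0.784, Acaca at 0.757, Pnpla3 at 0.596, Acacb at 0.504, Me1 at 0.502, Srebf1 at 0.469, Mlxipl at 0.215 and Acss2 at 0.164, and counting Fasn itself 164 genes were above the value of Thrsp. Those most like Srebf1 were Ceacam3 (r = 0.976), Gadd45a (0.962) and Plekha6 (0.956). Gadd45a, a growth arrest and DNA damage gene, averaged 8.636 in iron-deficient and 8.638 in control livers. With 8 arrays and 14217 genes such values are a description of these livers.

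The genes around the pathway were read from the same fit, each by its brightest probe set, beside a background of 47.0% of all genes higher and 53.0% lower. An unadjusted p under 0.05 was reached by 13.2% of all genes, 5.74% higher and 7.50% lower, and an adjusted one by 0.0422%. No gene of the 6 lists passed over all probe sets. Among 17 genes that control or partner SREBP and ChREBP, 9 were higher and 8 lower, with 2 at an unadjusted limma p under 0.05, both lower, and a median standardised difference of 0.147 against -0.0727 over all genes. Usf2, an E-box factor that binds lipogenic promoters, had the largest difference of the list, at -4.11 SDs with an interval from -5.73 to -2.49 (limma adjusted p = 0.127). Its 4 iron-deficient values lay below all control values, as did those of a second probe set at -3.35 SDs, while another stood at 1.26. Mbtps1, the site-1 protease that cleaves SREBP precursors, differed by -1.95 SDs (limma adjusted p = 0.415). Median centring took -5.06e-05 off every difference and so raised each one. That shift is larger in size than differences such as -5.15e-06 for Sp1 and -3.69e-06 for Mbtps1. With it 15 of the 17 were higher, a count that follows in part from the shift.

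Of 14 measured genes of insulin signalling and AMP kinase, 7 were higher and 7 lower, with 5 at an unadjusted p under 0.05, 2 higher and 3 lower, and a median of 0.0751. Igfbp1, an insulin-repressed binding protein that is also induced by low oxygen, differed by 5.35 SDs (limma adjusted p = 0.0735). Prkaa1, the α1 catalytic subunit of AMP kinase, which phosphorylates and inhibits acetyl-CoA carboxylase, differed by 2.79 SDs with no overlap (limma adjusted p = 0.236), while its other probe sets stood at 1.96 and 0.0856. The other AMP kinase subunits of the list, named after their values were seen, lay the other way, with Prkab1 at -2.38 SDs and no overlap, Prkaa2 at -1.73 and Prkag1 at -1.61 (limma adjusted p from 0.288 to 0.454). With median centring, after the same shift, 11 of the 14 were higher. There 1 gene of the list passed the adjusted threshold, and 1 did under quantile normalization.

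Of 9 measured genes that supply acetyl-CoA and NADPH, 6 were higher and 3 lower, with 0 past an adjusted and 0 at an unadjusted limma p under 0.05 and a median of 0.377. Tkt, the transketolase of the pentose phosphate pathway, and Cs, citrate synthase, had the largest differences at -1.43 and 1.39 SDs. Of 17 genes of desaturation, elongation and triglyceride synthesis, 5 were higher and 12 lower, with 1 at an unadjusted p under 0.05 and a median of -0.601. Gpd1, which makes glycerol 3-phosphate, differed by -1.90 SDs (limma adjusted p = 0.379), while its other probe set stood at -0.177. Elovl6, the elongase of palmitate, differed by -1.58 SDs. Under quantile normalization 8 genes of this list were higher. Of 8 measured ChREBP targets outside the members, 4 were higher and 4 lower, with 3 at an unadjusted p under 0.05, 2 higher and 1 lower, and a median of 0.110. Txnip, a thioredoxin-binding protein induced by glucose, stood at 2.02 and Bhlhe40 at 1.99 SDs, and Gpd1, which is in this list too, was the lower one.

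SREBP2 targets of cholesterol synthesis were set beside the lipogenic genes because both factors are cleaved by the same machinery. Of 10 measured genes, 9 were higher and 1 lower, with 6 at an unadjusted p under 0.05, all higher, and a median of 1.98 SDs. The 10 lipogenic members had 4 higher and 6 lower and a median of -0.144. Sqle, the squalene epoxidase, stood at 6.17 SDs (limma adjusted p = 0.0735) and Idi1, an isomerase of the pathway, at 4.37 (limma adjusted p = 0.117). With median centring 4 genes of this list passed the adjusted threshold, and under quantile normalization 2 did. The difference between the 2 lists was not tested, since both were drawn up with earlier results of these data known.

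**Figure D5:**
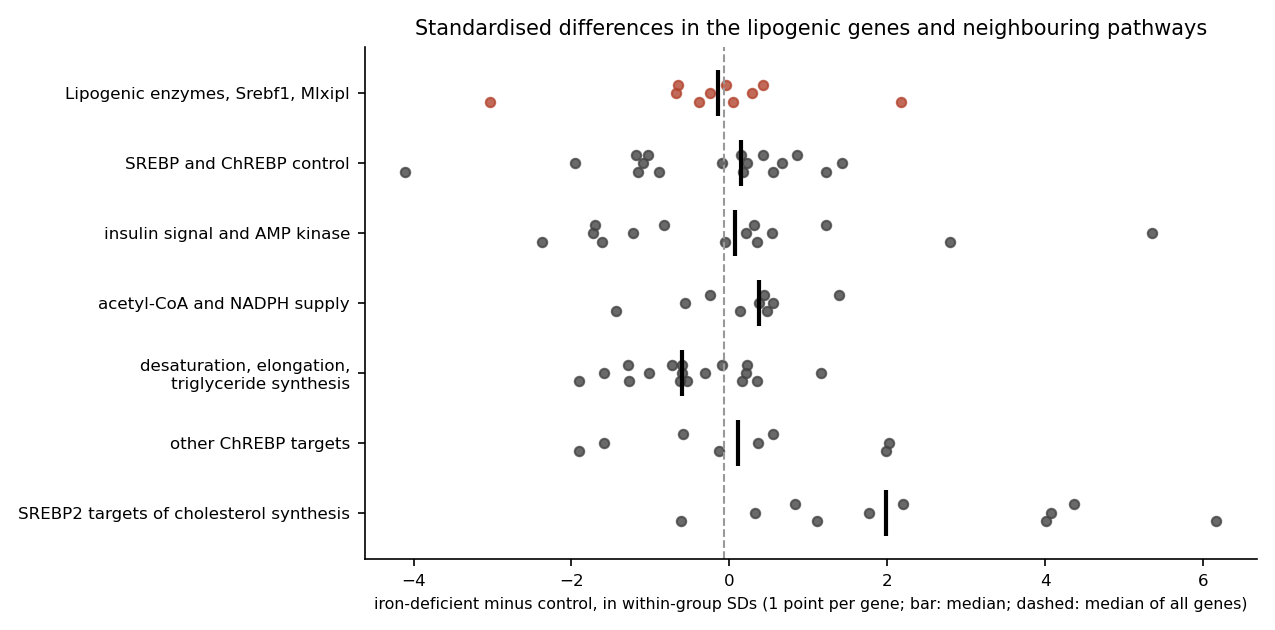
Standardised difference, iron-deficient minus control in within-group SDs, of each measured gene (1 point per gene) of the 10 members and 6 neighbouring lists; bars are list medians and the dashed line the median of all genes, -0.0727. The members straddle 0 with a median of -0.144, and the cholesterol synthesis genes lie mostly to the right with a median of 1.98.

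Fat cells also carry lipogenic transcripts, so their markers were read in the same livers. Of 6 measured adipocyte markers 4 were higher and 2 lower, and the mean of the list was 7.3547 to 7.3550 in iron-deficient and 7.3545 to 7.3546 in control livers on the log2 scale. Adipoq stood at 6.485 in both groups and Plin1 at 6.278, below the 25th percentile of 6.55, and Lep at 6.629, just above it. Fabp4, at 6.306 in iron-deficient and 6.304 in control livers, did not overlap between the groups (2.58 SDs, limma adjusted p = 0.261). Cidec, the brightest of the list, averaged 10.3251 in iron-deficient and 10.3253 in control livers (-1.83 SDs, limma adjusted p = 0.393). The list mean follows the probe sets with the widest spread, and without Fabp4 it was 7.56453 to 7.56470 in iron-deficient and 7.56451 to 7.56459 in control livers, so that the groups overlapped. Endothelial markers were higher for 4 of 5, with a list mean of 9.1747 to 9.1751 in iron-deficient and 9.1739 to 9.1741 in control livers, and stellate cell markers for 3 of 5, with 8.2215 to 8.2221 in iron-deficient and 8.2206 to 8.2211 in control livers. These 2 list means did not overlap between the groups, and they too follow the probe sets with the widest spread. The largest standardised differences were 5.09 for Flt1 and 4.10 for Stab2 among endothelial markers (limma adjusted p from 0.0801 to 0.127). Among stellate markers they were 3.70 for Lrat and 2.99 for Dcn (limma adjusted p from 0.140 to 0.213). Lower in iron-deficient livers were the endothelial marker Kdr, at -0.824 SDs, and the stellate markers Des, at -0.318, and Col1a1, at -0.354. Kupffer cell markers were higher for 4 of 4, at 9.7612 to 9.7614 in iron-deficient and 9.7612 to 9.7613 in control livers. Cholangiocyte, lymphocyte and erythroid lists overlapped between the groups, and the hepatocyte list stood at 14.1366 to 14.1367 in both groups. The difference for Alb was only -5e-09, so on this scale overlap does not show that the share of hepatocytes was alike. The part of these cell types in the Srebf1 and Acss2 differences was not tested.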

How the data were processed

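The authors deposited log2 values of 31099 probe sets on 8 arrays, a unit read from the values, which run from 5.32 to 16.1. Summarisation and normalization are not given in the sources used here. Of the probe sets, 57 controls were left out. Symbols came from the platform annotation, updated by gene identifier for 20758 of 20826 probe sets with 1 symbol, and 436 with several and 9780 with none were not named. A gene stands for its brightest probe set.

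Iron-deficient minus control was tested in limma (version 3.58.1, under R 4.3.3) by its lmFit and eBayes steps, with no block or filter and with Benjamini-Hochberg adjustment over all 31042 probe sets at a threshold of 0.05. The script was tested on simulated data. Exact permutation tests covered single probe sets and correlations. Every member was named, with the genes past the threshold of each pathway list or else its 2 largest standardised differences, and the 3 genes most like Fasn and Srebf1. Members and lists were chosen with earlier results of these data known. Arrays, 4 per group, limit the precision. Alternatives were scalings, leaving out dim probe sets (the lowest 25%) or single arrays, a block by replicate number and another variance model.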

Additional observations from a re-analysis of the deposited data

Results flagged for a closer look

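Within a diet group of 4 livers, 5 of 36 sets of member values held 1 liver far from the other 3, or 13.9%, where chance gives about 1 in 20 and all groups of all probe sets gave 5.31%. The 36 are not separate, since probe sets of 1 gene share its signal. The gap to the nearest liver, as a share of the group's range, was 0.878 for Acss2 1375944_at, 0.840 for Thrsp 1371400_at and 0.913 for Pnpla3 1380643_at, each with iron-deficient liver 3 on top. It was 0.848 for Pnpla3 1380013_at and 0.898 for Acaca 1387538_at, each with control liver 1 on top. The cause was not tested.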

How the results depend on the processing

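No member probe set passed the adjusted threshold of 0.05 in limma under any alternative run, and Srebf1 stayed lower and Acss2 higher in each one that gave a value. By exact permutation Srebf1 1388426_at (-2.09e-04) and Acss2 (0.00181) reached 0.0286, the smallest p possible. Over all probe sets, the 10 past the threshold became 129 under quantile normalization, 63 with median centring, 1 with the replicate block, 34 when quantile normalization left out the Hamp probe set (hepcidin, a choice made after seeing the data), and 4 to 27 with 1 array left out. The block changed no member's call. Deviations of same-numbered iron-deficient and control livers correlated at -0.111 to 0.0245, so the numbers were not taken as pairs. Quantile normalization gave 1 gene past the threshold in the insulin list, 2 in the SREBP2 list and 8 higher in the desaturation list, against 5. Median centring took -5.06e-05 off every difference and so raised each one. It gave 1 past the threshold in the insulin list and 4 in the SREBP2 list. Genes higher numbered 11 in the insulin list, against 7, and 15 among SREBP and ChREBP partners, against 9. Without Hamp, quantile normalization gave 1 past the threshold and 2 higher in the acetyl-CoA list, against 6. It gave 1 past the threshold in the SREBP2 list and 3 higher in the desaturation list. Apart from the shift under median centring, the cause was not tested.

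Small differences changed sign. Under quantile normalization Mlxipl was -9.16e-05, Acly 5.79e-04 and Fasn 1367708_a_at 8.44e-04, and without Hamp Mlxipl was -2.38e-04 and Acaca 1387538_at -6.91e-05. Quantile normalization left 3 member probe sets, 1 of Srebf1 and 2 of Thrsp, with no spread and so no value, and no Srebf1 correlation. Under median centring Acacb was 4.93e-05. With 1 array left out, Mlxipl ranged from -1.70e-05 to 3.83e-05, Acly from -2.47e-04 to 4.11e-05, Acaca 1387538_at from -1.34e-05 to 2.38e-04 and Acacb from -1.45e-05 to 1.00e-05. Me1 ranged from -0.00717 to 8.10e-04 and from -6.46e-04 to 9.69e-05, Thrsp 1371400_at from -2.99e-05 to 6.15e-05 and 1387852_at from -1.06e-04 to 4.34e-04. Pnpla3 ranged from -0.00267 to 0.0402, from -0.00117 to 0.00539 and from -0.0272 to 0.275. With group means kept, Srebf1 correlated at -0.129 with Thrsp, -0.629 with Acss2 and -0.101 with Pnpla3. The other Srebf1 probe set gave -0.00673 with Acaca and -0.0800 with Thrsp.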
